A study of Mus musculus with 6 samples.

Results

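The IL-10 family genes described here are the ligands Il10 and Il19 and the receptor chains Il10ra and Il10rb, taken as all probes that carry these symbols in the platform annotation. They are 4 of 16593 named genes, with 1 probe each out of 25697, and were chosen by their measured levels on the 6 arrays, so those levels and their differences are a description without a test. RNA came from bone marrow-derived macrophages of female mice, strain given as 129/BL6, that were either IRAK2 knockout or wild type. Cells grown for 5 days in L929-conditioned medium, a source of the macrophage growth factor M-CSF, received R848 or CpG B (both 1 µg/ml for 2 h) or were left untreated. R848 is an imidazoquinoline agonist of Toll-like receptor 7 in mice and CpG B an oligonucleotide agonist of Toll-like receptor 9. The 6 groups were therefore knockout with R848, knockout with CpG B, wild type with R848, wild type with CpG B, untreated knockout and untreated wild type, with 1 bead array each. The age of the mice, the number of mice behind an array and the deleted part of Irak2 are not stated.

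IL-10 is the main cytokine by which macrophages restrain their own inflammatory output. It binds a receptor built from IL-10RA, the ligand-binding chain tied to the kinase JAK1, and IL-10RB, a chain tied to TYK2 and shared with other cytokines of the family, and the transcription factor STAT3 carries the signal. IL-19 belongs to the same family but signals through another receptor, made of IL-20RA and IL-20RB. The kinase IRAK2 acts below MyD88 in Toll-like receptor signalling, and the design asks how the responses to both agonists differ when it is missing.

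In RefSeq, Il10 and Il19 are neighbours on chromosome 1, Il10ra is on chromosome 9 and Il10rb on chromosome 16. The place of each probe within its gene is not stated. Of the 4 genes, Il19 matched an entry in the RefSeq promoter table. Its window is shown as Il19 was the member detected on a single array. It covers 250 bases before and 50 after the transcription start that the table uses. RefSeq lists several Il19 transcripts and places the gene at 130932656 to 130945457, so this start lies inside the annotated gene. Which start these cells use was not tested. The window is at chr1:130940066-130940365 of GRCm38.p6, minus strand, written 5′ to 3′ with the match to the NF-kB decamer in capitals.
Il19 promoter: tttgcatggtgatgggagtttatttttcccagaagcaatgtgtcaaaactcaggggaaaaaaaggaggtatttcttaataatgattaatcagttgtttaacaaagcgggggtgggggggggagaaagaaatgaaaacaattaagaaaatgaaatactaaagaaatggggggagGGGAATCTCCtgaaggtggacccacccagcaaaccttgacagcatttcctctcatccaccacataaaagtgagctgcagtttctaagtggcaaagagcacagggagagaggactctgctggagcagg

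Both strands of this window were searched for 6 motifs. The NF-kB decamer matched once, 77 to 68 bases before the start, and it occurs in 8.46% of the 32851 windows in the table. The STAT-binding GAS motif TTCNNNGAA matched once, 225 to 217 bases before the start, and occurs in 8.3% of windows. The interferon-stimulated response element matched once, 107 to 98 bases before the start, and occurs in 3.44%. The 3 matches did not overlap. The AP-1 motif TGANTCA, the cyclic AMP element TGACGTCA and the TATA box TATAAA had 0 matches, against 7.81%, 1.79% and 13.6% of windows. A match describes letters in the window and is not evidence of a bound site.

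A probe counted as detected where its detection p-value was below 0.01, which 34.9% to 37.8% of probes per array met, and all 4 members were detected on at least 1 array. The intensities quoted per array are background-subtracted and not normalized between arrays, whose medians ranged from 20.6 to 27.7; log2 differences and folds are from normalized values. Irak2 itself was detected on all 6 arrays with both of its probes. One probe read 835 (R848), 622 (CpG B) and 378 (untreated) in the knockout, against 3695, 2618 and 534 in wild type. The other read 641, 556 and 338.5 in the knockout in the same order, against 2594, 2117 and 341.6 in wild type. Where these probes lie relative to the deletion is not stated, so they do not check the labels. Of 6 measured macrophage markers 5 were detected on all arrays. The brightest was Lyz2 (lysozyme), at 26564 to 27926 in the knockout and 31454 to 36528 in wild type. The faintest of the 5 was Itgam, at 128.5 to 166.4 in the knockout and 132.2 to 163 in wild type. Mertk was detected on 2 arrays, those of untreated cells. None of 5 T-cell, 5 mast-cell or 5 fibroblast markers was detected on any array, nor were 4 of 5 B-cell and 5 of 6 dendritic-cell markers. All 5 neutrophil markers were detected everywhere, with summed intensities of 5515 to 8650 in the knockout and 11421 to 13168 in wild type. Most of each sum was S100a8, at 4686.5 to 7486.9 in the knockout and 9674.4 to 11908.9 in wild type. In the limma fit Ltf, Ngp and Camp were called lower in the knockout (log2 -1.30, -0.78 and -0.60, adjusted p = 0.0038, 0.0293 and 0.0366). It did not call S100a8 (-0.54, adjusted p = 0.0796) or Elane (0.01, adjusted p = 0.964). The part of neutrophils in the genotype differences below was not tested.

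Il10, the anti-inflammatory ligand, was below the detection threshold in untreated cells and clearly measured after either agonist. In the knockout its intensity was 273 after R848, 291.5 after CpG B and 40.9 untreated. In wild type it was 1635 after R848, 515.7 after CpG B and 64.3 untreated. All 4 stimulated arrays lay above both untreated arrays, and the wild-type R848 array stood far above the other 3. As these are bulk RNA samples, fewer cells making a transcript and less transcript per cell cannot be told apart.

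Because untreated Il10 had detection p-values of 0.0764 (knockout) and 0.0163 (wild type), its folds over untreated cells are lower bounds. They set the normalized value against the lowest detected signal of the untreated array. With R848, knockout cells had at least 3.13-fold more Il10 than untreated ones, and wild-type cells at least 17.4-fold more. With CpG B the bounds were 3.53-fold in the knockout and 4.39-fold in wild type. The normalized log2 differences were 2.52 and 4.48 for R848 and 2.70 and 2.49 for CpG B, knockout first. These log2 values depend on how untreated signal at background is scaled, and the wild-type R848 value was 3.98 to 5.06 under the alternatives.

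**Figure D1:**
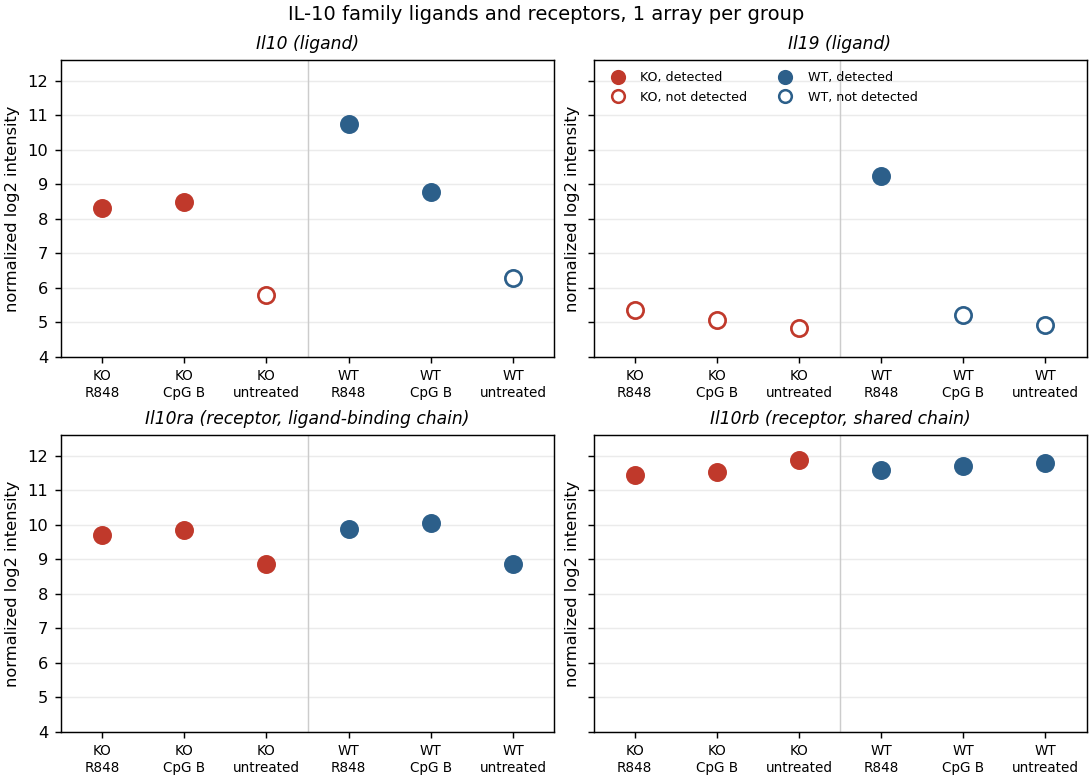
Normalized log2 intensity (vertical axis) of the 4 genes on each of the 6 arrays, 1 point per array, knockout (KO, red) left of wild type (WT, blue); open circles are values not detected at p under 0.01. Il10 stands at 8.30 (R848) and 8.48 (CpG B) in the knockout and at 10.76 and 8.77 in wild type, Il19 is detected on the wild-type R848 array alone, and Il10ra is higher on all 4 stimulated arrays than on either untreated one. Probes of different genes are not comparable in level.

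Il19 was measured under 1 condition. Its intensity was 14.6 (R848), -2.5 (CpG B) and -23.9 (untreated) in the knockout, with detection p-values from 0.199 to 0.905. In wild type it was 517.4 after R848, with a detection p-value listed as 0, but 6.2 after CpG B and -14.6 untreated. Thus the wild-type R848 array alone gave a signal, and the other 5 arrays were at background. The R848 value in wild type was at least 6.11-fold higher than untreated and at least 7-fold higher than after CpG B. In the knockout, R848 gave no fold, since neither array detected the gene.

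Il10ra, the chain that binds IL-10, was detected everywhere and higher after both agonists in both genotypes. Its intensity was 741.6 (R848), 770 (CpG B) and 496.8 (untreated) in the knockout, against 833.3, 1275 and 472.4 in wild type. The normalized log2 difference after R848 was 0.86 (1.81-fold) in the knockout and 1.01 (2.01-fold) in wild type. After CpG B it was 0.99 (1.99-fold) in the knockout and 1.19 (2.28-fold) in wild type. The 4 stimulated arrays did not overlap with the untreated ones, and all 4 differences sat close to 2-fold.

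Il10rb, the shared chain, moved little. Its intensity was 2489 (R848), 2458 (CpG B) and 3785 (untreated) in the knockout, against 3028, 4014 and 3612 in wild type. Normalized, the log2 difference after R848 was -0.44 in the knockout and -0.21 in wild type, and after CpG B -0.36 and -0.10. All 4 stimulated values were below both untreated values after quantile normalization, but with median scaling the wild-type CpG B difference was 0.02, and the CpG B array of wild type had the brightest unnormalized value.

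For scale, a second untreated array per genotype could be recovered from the submitters' processed values, which for untreated cells were taken to be means of 2 arrays. The 95th percentile of the absolute log2 difference between the untreated arrays of a genotype was 0.52 in the knockout and 0.50 in wild type over 7149 genes. On the processed scale the second untreated array of the knockout gave 32.8 for Il10, against 37.2 on the first, and that of wild type gave 35.7 against 63.3. Il19 was at -10.3 and -6.8, Il10ra at 418.1 and 456, and Il10rb at 3928 and 3491 on these second arrays, knockout first. The untreated levels of Il10ra and Il10rb thus differed by 0.11 log2 or less between the arrays of a genotype, and that of Il10, near background, by up to 0.62 once the offset of 16 was added before the log. Whether the second arrays came from other cultures is not stated.

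Ordered by normalized level, Il10 was highest on the wild-type R848 array, 1.99 log2 above wild-type CpG B, and then came knockout CpG B and knockout R848 with gaps of 0.30 and 0.18. Those gaps are within the spread between untreated arrays, whereas the next step down to untreated cells, 2.02 to a value below detection, is not. For Il10ra the single gap beyond this spread was the one of 0.84 between the lowest stimulated array, knockout R848, and untreated wild type. For Il10rb no neighbouring levels differed beyond the spread, and for Il19 the levels below the wild-type R848 array were all at background and have no order.

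At 2-fold or more, 1 of the 4 genes (Il10) was higher in the knockout after R848 and 1 (Il10) after CpG B, where 5.77% and 4.64% of all tested genes were higher. In wild type 3 of 4 (Il10, Il19 and Il10ra) were higher after R848 and 2 (Il10 and Il10ra) after CpG B, against 7.7% and 3.64% of all genes. Il10ra lay at the threshold: in the knockout after CpG B it was 0.99, and 1.03 from the processed table or 1.09 with the second untreated array, which makes that count 2. In wild type after R848 it was 1.01, and 0.87 with median scaling or 0.96 with an offset of 50, which makes that count 2. All of these counts come from the values by which the genes were chosen. The 4 comparisons with untreated cells share their untreated array within each genotype.

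Set directly against wild type, the knockout differed in the ligands after R848. Il10 was 5.51-fold lower in the knockout after R848 (log2 difference -2.46), and 10 of 6646 tested genes had a lower value. Its unnormalized intensity was 0.167 of that in wild type. Il19 was at least 5.86-fold lower, a bound because the knockout array did not detect it. The receptor chains differed by -0.16 (Il10ra) and -0.14 (Il10rb). Both ligands passed 2-fold, as 2.48% of all tested genes did in that direction.

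After CpG B the genotypes differed little in these genes. Il10 had a log2 difference of -0.30 (1.23-fold), Il10ra of -0.21 and Il10rb of -0.18, and Il19 was detected in neither genotype. None of the 4 passed 2-fold, against 2.73% of tested genes in either direction. Without normalization the knockout read 0.565 of wild type for Il10, 0.604 for Il10ra and 0.612 for Il10rb, and the array median was 21.4 in the knockout and 27.7 in wild type. Untreated, the differences were -0.01 for Il10ra and 0.09 for Il10rb, with 2.16% of tested genes past 2-fold, and neither genotype detected either ligand.

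**Figure D2:**
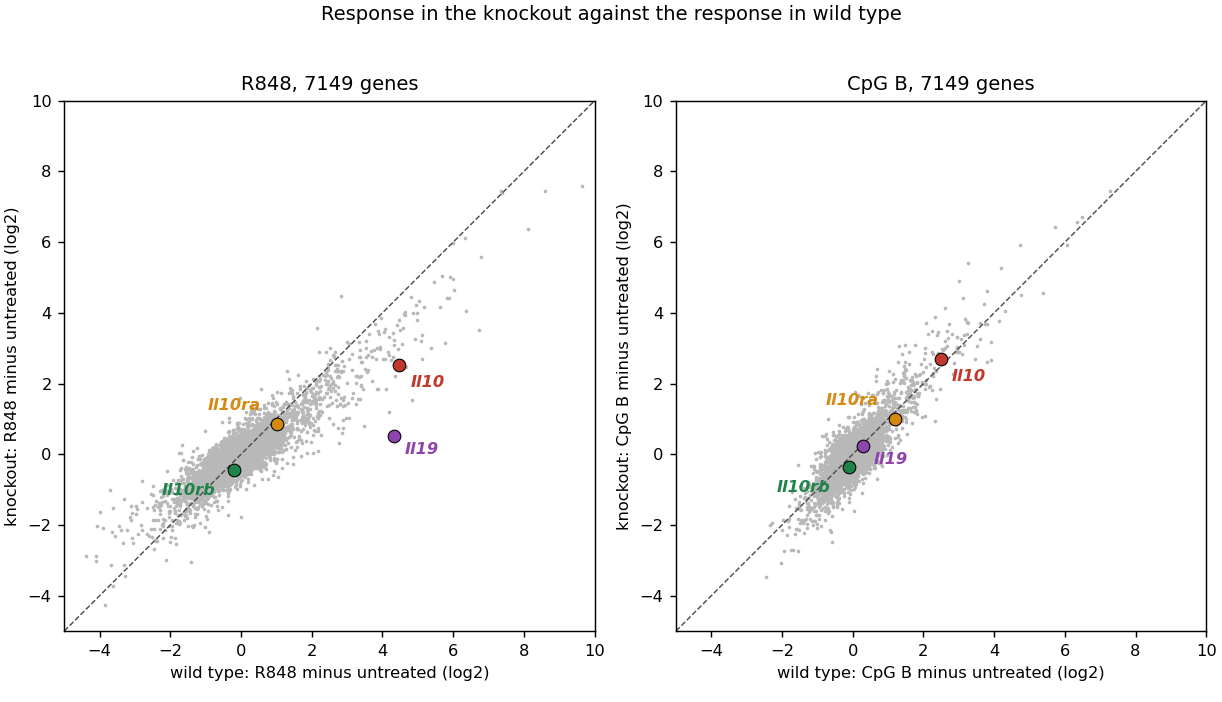
Log2 difference of stimulated from untreated cells in the knockout (vertical axis) against wild type (horizontal axis) for 7149 genes (grey points) after R848 (left) and CpG B (right); the dashed line marks equal responses. After R848 Il10 and Il19 lie below the line, at 2.52 and 0.52 in the knockout against 4.48 and 4.33 in wild type, while after CpG B all 4 genes lie near it. Values of Il10 and Il19 in untreated cells were below detection.

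The difference between the responses, knockout minus wild type, combines these values. For the ligands it rests on values at background, the untreated ones for Il10 and for Il19 also the knockout R848 one, so its size depends on the processing. For R848 it was -1.96 for Il10 (-2.35 to -1.88 under the alternatives) and -3.81 for Il19 (-4.30 to -3.06). It was -0.15 for Il10ra and -0.23 for Il10rb. At -1 or lower stood 2 of the 4 members and 2.15% of tested genes. For CpG B it was 0.20 for Il10, -0.05 for Il19, -0.19 for Il10ra and -0.26 for Il10rb, and 1.26% of tested genes passed 2-fold in either direction. The CpG B value of Il10 was -0.21 with the second untreated arrays and -0.02 with median scaling, so it has no settled sign.

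The agonists can also be set against each other within a genotype. R848 minus CpG B gave a log2 difference for Il10 of -0.18 in the knockout and 1.99 (3.97-fold) in wild type. Il19 was at least 7-fold higher after R848 in wild type and was detected after neither agonist in the knockout. For Il10ra the difference was -0.13 in the knockout and -0.18 in wild type, and for Il10rb -0.08 and -0.11. Over all tested genes, 15 of 6749 (0.222%) differed by 2-fold or more between the agonists in the knockout, and 435 of 6899 (6.31%) in wild type, so the agonist arrays of the knockout were close to each other for nearly every gene.

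The neighbours of Il10 and Il19 on chromosome 1 did not share one pattern. In RefSeq order the measured genes run Fcmr, Il24, Il20, Il19, Il10, Mapkapk2, Dyrk3 and Eif2d. The family members Il20 and Il24, next to Il19, were not detected on any array, with intensities of -27 to -15.4 and -7.7 to 7.4. Mapkapk2, which encodes the p38-activated kinase MK2, lies on the other side of Il10 and rose with R848 by 1.88 and with CpG B by 1.69 (limma, adjusted p = 0.00221 and 0.00608). Its R848 response was 1.67 in the knockout and 2.10 in wild type. Dyrk3, a kinase of stress granule dissolution, fell with R848 by 2.43 on the log2 scale (adjusted p = 0.00948), and Eif2d had a fitted difference of -0.31 (adjusted p = 0.127).

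**Figure D3:**
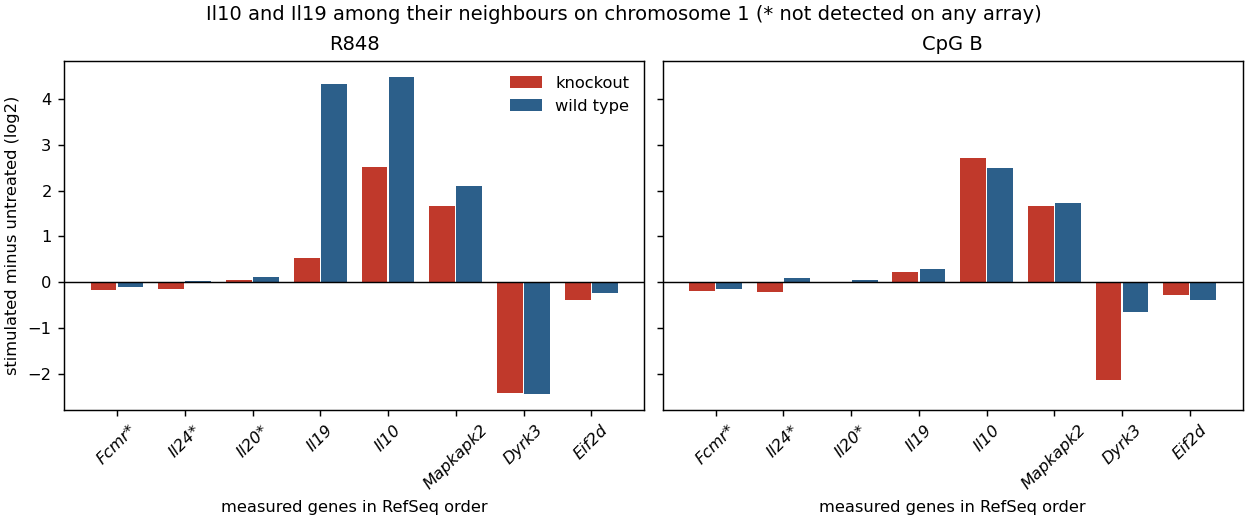
Log2 difference of stimulated from untreated cells (vertical axis) for 8 measured genes of chromosome 1 in RefSeq order (horizontal axis), knockout bars (red) left of wild-type bars (blue), after R848 (left panel) and CpG B (right panel), 1 array per group. Il19 and Il10 stand at 0.52 and 2.52 in the knockout and at 4.33 and 4.48 in wild type after R848, Mapkapk2 is higher and Dyrk3 lower in both genotypes, and Il20, Il24 and Fcmr were not detected.

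Around the receptor genes, the class II cytokine receptors Ifnar2 and Ifngr2 flank Il10rb on chromosome 16 and rose with R848 (1.03 and 0.92, adjusted p = 0.0165 and 0.00849, limma), whereas Il10rb had values of -0.44 in the knockout and -0.21 in wild type. Ifnar1, which lies between Il10rb and Ifngr2, was not detected. Of the 6 measured genes around Il10ra on chromosome 9, Fxyd2 was detected on 3 arrays, all of the knockout, and differed between genotypes by 1.32 (adjusted p = 0.00885, limma). Il10ra itself differed by -0.01 between untreated genotypes.

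The genes with the most similar profile were those whose log2 values, each centred on its own mean over the 6 arrays, had the smallest Euclidean distance to the member. Nearest to Il10 were Gm6377 (distance 0.55), the cyclic AMP phosphodiesterase gene Pde4b (0.84), the MYC-family gene Mycl (0.85), the RNA-degrading enzyme gene Zc3h12a (0.89) and the guanylate-binding protein gene Gbp2 (0.89). For Zc3h12a the intensities were 1025 (R848), 1010 (CpG B) and 148.9 (untreated) in the knockout, against 3203, 1388 and 139.7 in wild type. Nearest to Il19 were the metallothionein gene Mt2 (1.17), Calhm6 (1.38), the transcription factor gene Nfil3 (1.47), Gbp5 (1.47) and the chemokine gene Cxcl9 (1.53). Nfil3 read 1059, 678.9 and 659.9 in the knockout in the same order, against 5015, 1060 and 685.1 in wild type. Il19 was detected on 1 array, so its distances rest mostly on that value and on how background is scaled. Cxcl9 was likewise detected on the wild-type R848 array alone. Nearest to Il10ra were Zmiz2, Pofut2, Slc39a13, Zswim4 and the sterol enzyme gene Lss, at 0.23 to 0.29, and nearest to Il10rb were Smim8, Grsf1, Akip1, Adk and Ripk3, at 0.06 to 0.10.

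The rest of the pathway was followed in 7 lists with 94 genes, of which 79 were on the array and 57 detected. The 57 include Irak2 itself, the gene disrupted in the knockout. An additive limma model over the 6 arrays (agent and genotype) gave the R848 and CpG B effects averaged over genotypes. Of the 57 genes R848 raised 33 and lowered 7, against 12.1% and 17.3% of all 7149 genes. CpG B raised 17 and lowered 2, against 4.7% and 3.99%. The median log2 difference of the 57 was 1.03 and 0.56, against -0.076 and -0.039 over all genes. The 2 residual degrees of freedom come from differences between the genotypes' responses, which widen the error of genes like those below.

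Among other ligands of the family, Il20, Il22, its paralog Iltifb and Il24 were not detected on any array. Of 10 other class II cytokine receptors 4 were detected and 3 rose with R848. Il20rb, a chain of the IL-19 receptor, rose by 1.56 (adjusted p = 0.00596) but was detected on 2 arrays, and its partner chain Il20ra on none. Of 8 detected genes of IL-10 receptor signalling, 4 rose with R848, including Tyk2 (1.10, adjusted p = 0.00661) and Stat3 (0.65, adjusted p = 0.0223). The phosphatase gene Inpp5d (SHIP1; -2.01, adjusted p = 0.00893) and Pias3, an inhibitor of STAT3 (-1.29, adjusted p = 0.00964), fell. Jak1 had a value of 0.19 (adjusted p = 0.365). With CpG B, Tyk2 rose (0.83, adjusted p = 0.0304) and limma called no other gene of this list.

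Of 12 detected genes that IL-10 is known to induce, R848 raised 8 and lowered 1, and CpG B raised 3 and lowered 1. Socs3, a feedback inhibitor of cytokine signalling, rose by 7.25 with R848 and 5.99 with CpG B (adjusted p = 0.00164 and 0.00376). The co-regulators Bcl3 (3.30, adjusted p = 0.00221) and Sbno2 (1.60, adjusted p = 0.0159) rose with R848, as did Nfil3 (1.92, adjusted p = 0.0344) and the interleukin-1 receptor antagonist gene Il1rn (4.38, adjusted p = 0.00414). Gadd45g fell with both (-2.24 and -1.63, adjusted p = 0.00278 and 0.0129). Toll-like receptor signals also induce several of these genes without IL-10, so the list does not measure IL-10 action. The R848 response was lower in the knockout by 2-fold or more for 7 of its 12 genes, against 2.15% of all tested genes. These were Nfil3 (-1.92), Socs3 (-1.76), the phosphatase gene Dusp1 (-1.75), the mRNA decay factor gene Zfp36 (-1.38), Fcgr1 (-1.25), Il1rn (-1.17) and Sbno2 (-1.16). Of these 7 genes 1, Socs3, was below detection on an untreated array. Set directly between the R848 arrays, 5 of the 7 were 2-fold or more lower in the knockout. Il1rn (-0.45) and Sbno2 (-0.86) were not, and their untreated values were higher in the knockout by 0.72 and 0.30. In wild type 9 of the 12 genes rose 2-fold or more with R848, against 7.7% of all tested genes. The 2.15% is thus not a share among genes with a like response. The list's median was -1.16, against 0.048 over all genes, and no test was made of it. For CpG B the median was 0.02, with 1 gene higher and 0 lower, where 1.26% of all tested genes passed 2-fold in either direction.

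**Figure D4:**
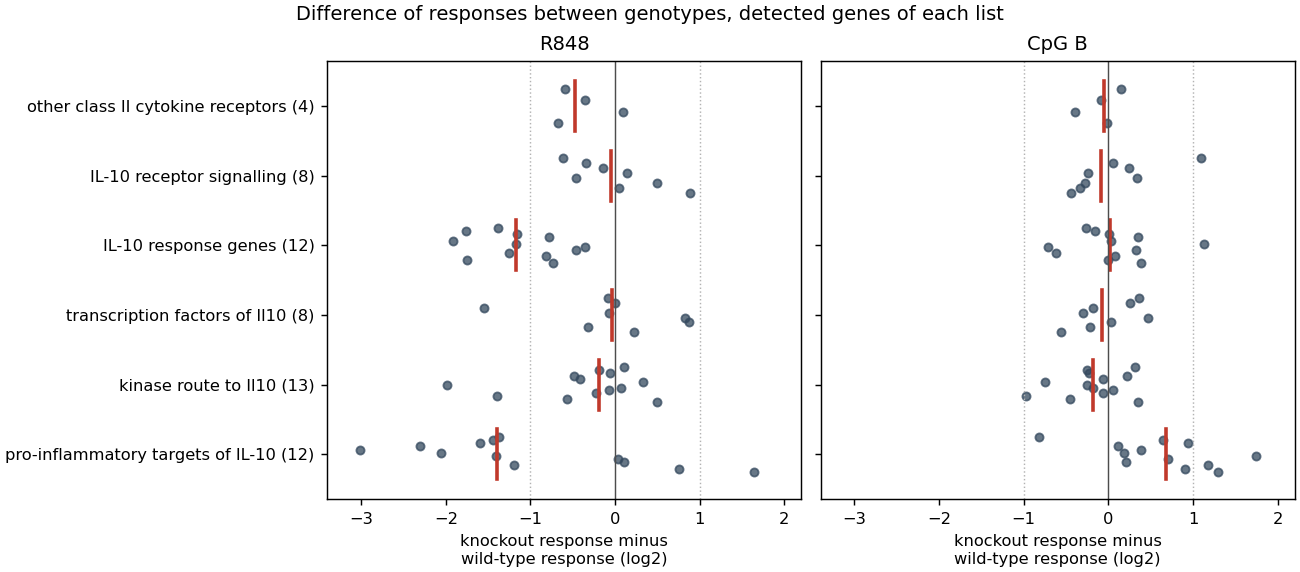
Knockout response minus wild-type response (horizontal axis, log2) for each detected gene of 6 lists (rows, number of genes in brackets) after R848 (left) and CpG B (right); points are genes, red bars list medians and dotted lines 2-fold. After R848 the medians of the IL-10 response genes and the pro-inflammatory targets are -1.16 and -1.39, and after CpG B they are 0.02 and 0.68.

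Of 12 detected cytokine, chemokine and enzyme genes that IL-10 is known to restrain, 11 rose with R848 and 9 with CpG B. Il6 rose by 5.21 and 3.67 (adjusted p = 0.00408 and 0.0227), and Il27 had a value of 2.70 with R848 (adjusted p = 0.0529). In 8 of the 12 the R848 response was lower in the knockout by 2-fold or more, against 2.15% of all tested genes, but 6 of these 8 were below detection on an untreated array and the size of their response difference is not fixed. Set directly between the R848 arrays, 7 of the 8 were detected in both genotypes and 2-fold or more lower in the knockout, among them Il6 (-2.32), Il1b (-1.47) and Tnf (-1.02). Il27, the other one, was detected after R848 in wild type alone. In wild type all 12 genes of the list rose 2-fold or more with R848, against 7.7% of all tested genes. Here too the 2.15% is not a share among genes with a like response. Ccl3 had a response difference of 1.64, where 1.17% of all tested genes were at 1 or higher. Its R848 intensities, 33764 in the knockout and 29707 in wild type, lay near the highest on their arrays (34572 and 40224), and the genotypes differed by 0.41 after R848 and by -1.24 untreated, so a larger response in the knockout is not shown. Cxcl1 and Cxcl2 had response differences of 0.10 and 0.03. Both were below detection in untreated knockout cells, so the size of these differences is not fixed and an equal response is not shown. Set directly between the R848 arrays, they were lower in the knockout by -1.32 and -1.26 log2. The R848 intensity of Cxcl1 in wild type, 36832, also lay near the highest on its array. The list's median was -1.39 for R848 and 0.68 for CpG B. For CpG B 3 genes were at 1 or higher and 0 at -1 or lower, where 1.26% of all tested genes passed 2-fold in either direction. The 3 were Il1a (1.75), Ccl3 (1.30) and Ccl5 (1.18). Set directly between the CpG B arrays, Ccl3 and Ccl5 differed by 0.06 and 0.36, and untreated by -1.24 and -0.81. Il1a was below detection untreated and after CpG B in wild type, so the size of its difference is not fixed.

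The median R848 response difference was smaller in the lists of Il10 regulators, at -0.19 for the kinase route and -0.03 for the transcription factors. Single genes had larger differences, among them Map3k8 (-1.99) and Rel (-1.55). Of 8 detected transcription factors in this list Cebpb (1.58, adjusted p = 0.00244), Rel (2.36, adjusted p = 0.00989) and Rela (0.63, adjusted p = 0.0201) rose with R848, and Fos (-1.51, adjusted p = 0.00963) and Bhlhe40 (-0.81, adjusted p = 0.0347), a repressor of Il10 in mouse cells, fell. Maf, an activator of Il10, was not detected on any array. The R848 response of Rel, the NF-kB subunit c-Rel, was 1.59 in the knockout and 3.14 in wild type, against untreated values below detection, and after R848 its level differed by -1.43. In the kinase route to Il10, 4 of 13 detected genes rose with R848 and 2 fell. Among the 4 was Irak2 itself (2.11, limma adjusted p = 0.00893), with responses of 1.42 in the knockout and 2.81 in wild type. Map3k8, which encodes the ERK-activating kinase TPL2, rose by 2.84 (adjusted p = 0.0109), with responses of 1.84 in the knockout and 3.83 in wild type. Rps6ka5, which encodes MSK1, a kinase of CREB, fell with R848 and CpG B (-1.22 and -0.62, adjusted p = 0.00344 and 0.0439).

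The genotype effect averaged over agents called 3 of the 57 pathway genes, against 1.76% of all genes higher and 1.64% lower in the knockout. The 1 gene called higher is about the share over all genes. Irak2, among the 57, was not called (log2 -1.36, limma adjusted p = 0.0609). Bhlhe40 was higher in the knockout (log2 1.23, limma adjusted p = 0.0234), and Cxcl1 and Cxcl2 were lower (log2 -1.31 and -1.05, adjusted p = 0.0038 and 0.0351). For Cxcl1 and Cxcl2 the untreated differences, -1.41 and -1.29, rest on knockout values below detection. After R848 they were -1.32 and -1.26, and after CpG B -1.21 and -0.59. The Bhlhe40 difference was present without an agonist, at 1.34 untreated against 1.56 after R848 and 0.78 after CpG B. Whether it came from the loss of IRAK2 or from another difference between the mice was not tested. In a fit without the untreated arrays limma called 0 of the 57 pathway genes, with 2 higher and 6 lower list genes at an unadjusted p under 0.05. The genotype calls of the additive fit rest on 3 arrays per genotype, each of another condition, whose mice or cultures are not named. Their p-values measure how even the genotype difference was across the 3 conditions, not the spread between mice. That unevenness may be technical.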

How the data were processed

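The deposited intensity of each probe was background-subtracted but not normalized between arrays, as its values show, and comes with a p-value of detection, also deposited by the authors. The submitters' processing notes name BeadStudio, without a version. The authors' deposited processed intensity values, linear and quantile normalized as far as the values show, served as an alternative. Their untreated columns were taken as means of 2 arrays, since the other array so recovered followed the common distribution within 0.5 units for 99.6% (knockout) and 99.7% (wild type) of sorted values, against 67.2% and 66.6% for a mean of 3.

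In R 4.3.3, limma 3.58.1 (neqc) corrected background from the detection p-values, added an offset of 16, applied quantile normalization and took log2. A gene was represented by its probe of highest mean. The additive limma fit covered the 7149 genes with a detection p under 0.01 on any array, with Benjamini-Hochberg adjustment over all of them, and was checked on simulated arrays. Calls are at an adjusted p under 0.05; single-array differences are counted at an absolute log2 difference of 1. The number of arrays limits precision. The members, lists and rules were chosen with earlier results of these data known. Named genes are members, list members, the 3 measured neighbours on each side and the 5 most similar profiles per member. Probes were named through the platform annotation (23978 with 1 gene, 1719 unnamed here) and RefSeq GRCm38.p6.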

Additional observations from a re-analysis of the deposited data

How the results depend on the processing

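No paired analysis was possible because each group has 1 array and the labels carry no replicate numbers. Of 248 recomputed member differences, 212 stayed within 1 SD (0.258 log2) of the untreated pairs, 36 moved by more and 0 of those past 2-fold reversed. The sign turned in 5, all of at most 0.20 in size as reported: with median scaling the CpG B response differences of Il10 (-0.02) and Il19 (0.03), Il10rb after CpG B in wild type (0.02) and Il10rb between untreated genotypes (-0.05), and with the second untreated arrays the first of these (-0.21). Of 74 values past 2-fold 72 remained so, the exceptions being Il10ra after R848 in wild type, 0.87 with median scaling and 0.96 with an offset of 50. The Il10 difference after R848 in wild type was 3.98 with an offset of 50 and 5.06 with the second untreated array, and its knockout minus wild-type difference after CpG B was -0.56 with median scaling, which moves the median of all genes there to -0.274 from -0.016. For Il19, at background on most arrays, the R848 difference in wild type was 5.16 without background correction, 3.32 with an offset of 50, and 5.18 from the processed table and with the second array. Its knockout minus wild-type difference after R848, -3.89 against a value at background, was -4.30 without background correction and from the processed table, and -3.10 with the offset of 50. R848 counts of pathway genes stayed within 1.5 times under every alternative run. For CpG B the 17 rising genes became 10 without the detection filter, 30 without the R848 arrays and 32 in the fit of 8 arrays; the 2 falling became 1 with median scaling, the processed table, mean probes, no filter or no genotype term, 5 without the R848 arrays and 4 with 8 arrays. The 1 gene higher in the knockout became 0 without the filter, the agent term or the untreated arrays, 3 without the R848 arrays and 2 with 8 arrays. The 2 lower became 1 without the filter, 0 without the agent term or the untreated arrays, and 5 with 8 arrays. Where limma called 0, unadjusted p-values under 0.05 numbered 1 higher and 0 lower without the agent term, 2 and 6 without the untreated arrays, and 2 higher without the filter. Leaving out arrays or genes changes the number fitted; otherwise the cause was not tested. Chosen after seeing the data, the counts of 7 and 8 genes with lower R848 responses in the knockout were 5 to 7 and 7 to 8 under the alternatives.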

Other observations

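Il19 belonged to a small group of genes seen on a single array, singled out here after its values were known. On the wild-type R848 array 36 of 16593 named genes (0.217%) were detected that were detected on no other array. They included Il19 at 517.4, the chemokine gene Cxcl9 at 259.3, the hyaluronan synthase gene Has1 at 227.2 and the NADPH oxidase gene Nox1 at 210.4. On the other arrays the highest intensity was 14.6 for Il19, 73.1 for Cxcl9, 65.5 for Has1 and 72.3 for Nox1. Genes detected on 1 array alone numbered 20 for R848, 54 for CpG B and 27 for untreated cells in the knockout, and 87 for CpG B and 35 for untreated cells in wild type. Above an intensity of 100 they numbered 3, 0 and 19 in the knockout in the same order, and 20 for R848, 24 for CpG B and 12 for untreated cells in wild type.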
